A study of Homo sapiens with 30 samples.

Results

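The desmosome genes described here are 10 genes for the structural proteins of the desmosome: the desmogleins DSG1, DSG2 and DSG3, the desmocollins DSC2 and DSC3, the plakophilins PKP1, PKP2 and PKP3, plakoglobin (JUP) and desmoplakin (DSP). They were chosen by name, as the rows whose gene name is one of these symbols in both count tables, and each symbol matched 1 row, among 58288 genes of the first table and among 20073 genes of the second. The measurements are RNA sequencing libraries of UMUC1 cells, a bladder cancer line whose own UTX, the histone demethylase made from KDM6A, carries a mutation that inactivates it. All 30 libraries come from this line, in 10 groups of 3, harvested 3 days after plating. In the first experiment the cells stably carried pSIN-puro, either empty (EV), with wild type UTX, or with UTX mutated at H1146A and E1148A (HEAA), and grew in full medium or sphere medium. Full medium was MEM with 10% fetal bovine serum, and sphere medium was MEM without serum, with B27 lacking vitamin A and with FGF2 and EGF at 20 ng/ml each. In the second experiment all cells grew in full medium and carried pBabe-puro with wild type FGFR3 or with FGFR3 S249C, a mutation found in bladder cancer, together with pCDH-blasticidin that was empty (EV) or held wild type UTX. The labels do not say whether a line was a single clone or a pool, so a line and its construct cannot be told apart.

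Desmosomes are adhesive junctions that hold epithelial cells together and anchor their keratin filaments. Desmogleins and desmocollins are cadherins that span the membrane and bind those of the next cell; plakoglobin and the plakophilins, proteins of the armadillo family, attach to the cadherin tails, and desmoplakin links this plaque to keratin. DSG2, DSC2 and PKP2 are the isoforms found in simple epithelia and in heart, whereas DSG1, DSG3, DSC3 and PKP1 are known from stratified epithelia such as epidermis. Normal urothelium is a stratified lining whose basal cells make KRT5.

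Levels are given as CPM, counts scaled to the library total and its TMM factor, and group values are means ± SD of n = 3 libraries. Library totals ran from 23749352 to 40111234 counts in the first experiment and from 21672408 to 28290664 in the second. KDM6A was at 7.71 to 17.9 CPM in the EV libraries of the first experiment and at 568 to 957 CPM in those with UTX or HEAA, and in the second at 10.1 to 17.0 and 700 to 946 CPM; a gene count cannot tell HEAA from wild type UTX. The 6 epithelial markers (EPCAM, CDH1, KRT8, KRT18, KRT19 and KRT7) summed to 3991 to 5853 CPM in the first experiment, against 12.1 to 56.9 CPM for 6 fibroblast markers and 0.141 to 2.78 CPM for 4 cardiomyocyte markers, of which MYH6 and MYH7 were at 0. A gene was called changed at an adjusted p under 0.05 in edgeR's quasi-likelihood test fitted over all genes of an experiment, with fold changes given on the log2 scale ± SE. Because many genes passed in most comparisons, the share of all genes called (the background) stands beside each count. Whether replicates came from separate cultures is not given in the labels; the p-values rest on the spread among the libraries alone, which may be technical. In bulk RNA fewer cells of a type and less RNA per cell cannot be told apart.

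In full medium the desmosome RNA of the EV cells was mostly that of broadly expressed members, except that DSC2 was lower than DSC3. Divided by exon length, JUP stood highest at 176 ± 6.69 CPM per kb, followed by PKP3 at 92.6 ± 3.05, DSG2 at 65.3 ± 1.59, DSP at 44.3 ± 1.18, PKP2 at 21.5 ± 0.392 and DSC3 at 16.4 ± 0.51 CPM per kb. The remaining 4 genes were far lower: PKP1 at 2.07 ± 0.154, DSC2 at 1.87 ± 0.065, DSG1 at 0.952 ± 0.0709 and DSG3 at 0.0476 ± 0.0203 CPM per kb. In the EV cells in sphere medium the order was JUP at 524 ± 10.2 CPM per kb, DSP at 384 ± 6.06, PKP3 at 247 ± 10.4, PKP1 at 96.3 ± 3.14, DSC3 at 88.3 ± 4.65, DSG1 at 59.7 ± 4.3, DSG2 at 53.6 ± 2.14, DSC2 at 27.2 ± 1.06, PKP2 at 17.1 ± 1.2 and DSG3 at 12.6 ± 0.642. PKP1 and DSG1, which ranked the seventh and the ninth in full medium, thus stood above DSC2 and PKP2 in sphere medium, and DSG1 lay beside DSG2. PKP1 had stood just above DSC2 in full medium too. The exon length of DSC2 (12.495 kb, all its annotated exons together) includes a long isoform, which may lower its level per kb. Before division by length DSC2 also lay below DSC3 in EV cells in full medium, at 23.3 against 116 CPM.

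Sphere medium raised most desmosome genes, in all 3 lines. In EV cells 8 of the 10 rose and 2 fell, against a background of 65.5% of all genes called in either direction; all 8 rose at least 2-fold, against 8.20% of all genes. In UTX cells 9 rose and 1 fell (background 70.5%), with 8 at least 2-fold higher (9.09% of all genes), and in HEAA cells 9 rose and 1 fell (background 70.8%), again with 8 at least 2-fold higher (8.23%). The median log2 fold change of the 10 genes was 2.77 in EV, 3.07 in UTX and 2.84 in HEAA, beside -0.03, -0.06 and -0.07 over all genes tested. Summed over the 10 genes, the level went from 2004 ± 20.1 to 8673 ± 98.0 CPM in EV, from 2078 ± 55.0 to 6502 ± 92.9 CPM in UTX and from 2162 ± 14.7 to 6873 ± 120 CPM in HEAA. The media differed in serum, B27, FGF2 and EGF together, and these cannot be told apart.

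**Figure D1:**
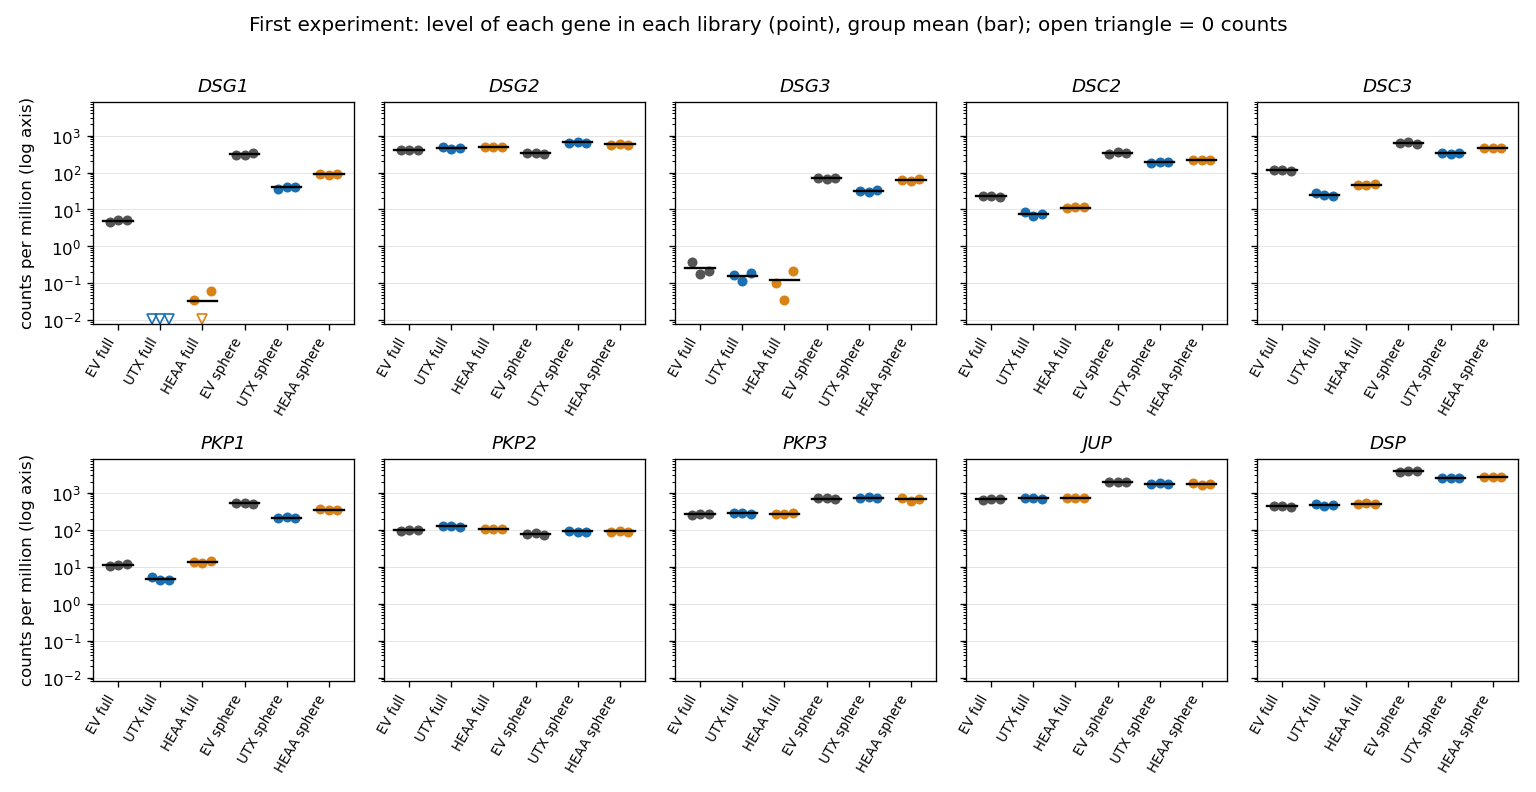
Level of each desmosome gene in the 18 libraries of the first experiment, in CPM on a log axis; points are libraries, bars are group means of 3 libraries and open triangles are libraries with 0 counts. In the 3 sphere groups 8 genes stand above the 3 full-medium groups, and DSG1 is at 0 in all 3 UTX libraries in full medium. DSG2 and PKP2 vary least, by 1.97-fold and 1.60-fold between the highest and lowest group mean.

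Among the desmogleins, DSG1 and DSG3 are the isoforms of the epidermis, DSG3 towards its base and DSG1 towards its surface, and are the targets of the autoantibodies of pemphigus. DSG1 measured 4.57, 5.22 and 5.21 CPM in the EV libraries in full medium and 296, 305 and 339 CPM in sphere medium, a log2 fold change of 5.96 ± 0.07 (adjusted p = 8.62e-23). In UTX cells it had 0 counts in full medium and 36.9, 41.2 and 41.7 CPM in sphere medium, at least 1214-fold higher with a floor of 3 counts over the group. In HEAA cells it had 3 counts in full medium and 90.9, 87.7 and 89.1 CPM in sphere medium, a ratio of 2598 with a 95% counting interval of 889 to 12602. All sphere libraries thus lay above all full-medium libraries in each line.

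DSG3 measured 0.39, 0.176 and 0.223 CPM in EV in full medium and 69.0, 66.2 and 73.2 CPM in sphere medium, a log2 fold change of 8.08 ± 0.11 (adjusted p = 2.7e-23). It also rose in UTX cells, from 0.161 ± 0.0366 to 31.4 ± 1.28 CPM, and in HEAA cells, from 0.122 ± 0.094 to 62.8 ± 2.45 CPM. DSG2, the desmoglein of all desmosome-bearing tissues, went the other way in EV cells: it measured 415, 403 and 395 CPM in full medium and 340, 339 and 316 CPM in sphere medium (log2 fold change -0.29 ± 0.04, adjusted p = 7.87e-06). In UTX cells DSG2 rose from 471 ± 27.7 to 652 ± 33.9 CPM (0.47 ± 0.04) and in HEAA cells from 490 ± 8.17 to 579 ± 20.6 CPM (0.24 ± 0.04). DSG2 is therefore the only one of the 10 genes whose direction with medium differed between lines, and the difference of its fold changes between UTX and EV passed the test (0.75 ± 0.06, adjusted p = 4.57e-09).

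The 3 desmogleins lie on chromosome 18 in the cluster DSC3, DSC2, DSC1 (minus strand), DSG1, DSG4, DSG3, DSG2 (plus strand), which spans chr18:30990008-31549008 in GENCODE v29 on GRCh38. The files name older builds, so positions are those of this annotation. RefSeq (GRCh38.p14) gave promoter sequences for 8 of the 10 genes, not for PKP2 and PKP3. The 250 bases before the start sites of the 3 desmogleins are shown because these genes of the same cluster differ most in base composition. Each CG dinucleotide is in capitals, all on the plus strand, at chr18:31317910-31318159 for DSG1, chr18:31447491-31447740 for DSG3 and chr18:31497927-31498176 for DSG2.
DSG1: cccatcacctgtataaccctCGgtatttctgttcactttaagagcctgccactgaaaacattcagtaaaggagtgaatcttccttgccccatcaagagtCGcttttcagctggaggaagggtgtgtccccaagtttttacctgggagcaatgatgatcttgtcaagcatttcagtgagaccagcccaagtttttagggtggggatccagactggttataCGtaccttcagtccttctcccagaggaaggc
DSG3: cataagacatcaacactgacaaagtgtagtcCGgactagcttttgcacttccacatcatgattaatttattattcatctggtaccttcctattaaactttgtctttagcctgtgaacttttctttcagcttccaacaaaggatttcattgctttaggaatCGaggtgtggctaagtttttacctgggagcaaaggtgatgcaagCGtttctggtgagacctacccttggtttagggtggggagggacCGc
DSG2: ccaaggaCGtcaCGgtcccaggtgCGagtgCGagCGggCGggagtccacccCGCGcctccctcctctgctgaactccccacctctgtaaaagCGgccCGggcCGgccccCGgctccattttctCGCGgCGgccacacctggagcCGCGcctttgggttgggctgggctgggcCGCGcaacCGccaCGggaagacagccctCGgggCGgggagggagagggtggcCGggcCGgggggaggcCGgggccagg
The stretch of DSG1 holds 3 CG dinucleotides, that of DSG3 holds 4 and that of DSG2 holds 26, with G and C making up 48.0%, 42.8% and 75.2% of bases. Over the full RefSeq windows of 300 bases the other 7 promoters of the group (2 each for DSC2 and JUP) held 15 to 37 CG dinucleotides at 60.7% to 77.0% G and C, and the median of all 35116 windows was 14 and 58.7%. DSG1 and DSG3 also share a run of 20 bases on the same strand, from -120 to -101 in DSG1 and from -78 to -59 in DSG3, counted from the start site.
Shared run: AAGTTTTTACCTGGGAGCAA
These 2 promoters are the only ones of all 35116 that hold it on either strand, and among the 43 pairs of promoters of different genes of the group the next longest shared run was 12 bases. Of the motifs searched on both strands, AP-1 (TGANTCA, in 7.71% of all windows), the grainyhead-like motif (AACCGGTT, 0.134%), the TATA box (TATAAA, 11.5%) and TEAD (GGAATG, 14.0%) had no match in the 8 genes. The p53 family half-site, known by that name and found in 6.63% of all windows, matched in DSC3 and DSG3, and the CCAAT box (CCAAT, 34.6%) in DSC3 and JUP. The GC box (GGGCGG, 45.0% of all windows) matched in DSC2, DSG2, DSP, JUP and PKP1, and the Snail/ZEB E-box (CACCTG, 20.6%) in DSC2, DSG1, DSG2, DSP and JUP. A match is a description of the letters only.

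The desmocollins rose in all 3 lines. DSC2, the broadly expressed one, measured 23.8, 23.8 and 22.4 CPM in EV in full medium and 326, 353 and 342 CPM in sphere medium (log2 fold change 3.87 ± 0.05, adjusted p = 9.17e-24). DSC3, that of basal layers of stratified epithelia, measured 119, 116 and 112 CPM and then 628, 653 and 588 CPM (2.43 ± 0.05, adjusted p = 4.63e-21). The rise was larger with UTX, at 4.64 ± 0.06 for DSC2 and 3.72 ± 0.05 for DSC3, and the differences from EV passed the test (0.77 ± 0.08 and 1.29 ± 0.07, adjusted p = 9.37e-08 and 2.91e-12). The larger ratio went with lower starting levels: UTX cells held 7.54 ± 0.911 CPM of DSC2 and 25.1 ± 2.05 CPM of DSC3 in full medium, and reached 189 ± 4.14 and 331 ± 8.19 CPM, below the EV level in sphere medium.

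The plakophilins split. PKP1, the plakophilin of suprabasal epidermis, measured 10.4, 11.4 and 12.1 CPM in EV in full medium and 540, 527 and 506 CPM in sphere medium, 46.2-fold higher (log2 fold change 5.53 ± 0.06, adjusted p = 9.06e-25). PKP3, found in most epithelia, measured 251, 263 and 267 CPM and then 717, 704 and 661 CPM (1.42 ± 0.05, adjusted p = 1.6e-16). PKP2, the plakophilin of simple epithelia and heart, measured 93.6, 95.6 and 97.1 CPM and then 75.3, 81.5 and 70.9 CPM (-0.33 ± 0.04, adjusted p = 7.86e-07), with every sphere library below every full-medium library. It also fell in UTX cells (-0.45 ± 0.04) and in HEAA cells (-0.21 ± 0.04) and was the only desmosome gene lower in sphere medium in all 3 lines.

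The shared plaque proteins rose as well. JUP, which binds both kinds of cadherin, measured 626, 663 and 674 CPM in EV in full medium and 1984, 1914 and 1926 CPM in sphere medium (log2 fold change 1.57 ± 0.04, adjusted p = 5.09e-19). DSP, which ties the plaque to keratin filaments, measured 439, 442 and 421 CPM and then 3707, 3824 and 3748 CPM, 8.66-fold higher (3.11 ± 0.04, adjusted p = 1.25e-24). In sphere medium the CPM of DSP alone corresponded to 0.376% of the scaled counts in EV cells, against 0.0434% in full medium. The rises were smaller in UTX cells, 2.42 ± 0.03 for DSP and 1.30 ± 0.04 for JUP, and in HEAA cells, 2.39 ± 0.03 and 1.26 ± 0.04.

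**Figure D2:**
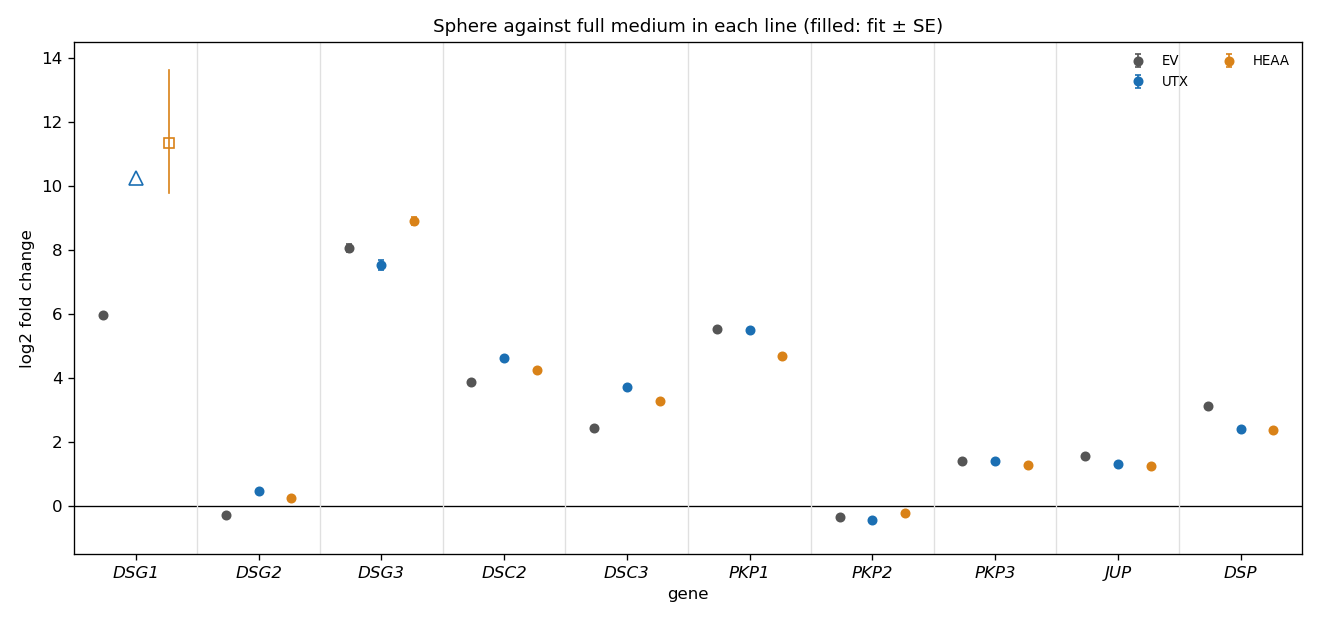
Log2 fold change of each desmosome gene between sphere and full medium in the EV, UTX and HEAA lines; filled points are fitted values ± SE over 3 against 3 libraries, the open triangle is a lower bound (0 counts in full medium) and the open square a count ratio with its 95% counting interval. DSG1, DSG3 and PKP1 rise most, DSG2 falls in EV alone, and PKP2 falls in each line.

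Other genes moved with the medium too, and their part in these results was not tested. The basal markers KRT5, KRT14 and TP63 all rose in EV cells in sphere medium, from a summed 2343 to 2542 CPM to 13565 to 14647 CPM, and none was at 0. Of the luminal markers, 5 of the 6 tested fell in EV cells and 1 rose, the sum of 7 going from 658 to 684 CPM to 239 to 246 CPM with UPK3A at 0 in every library. Of 10 further desmosome genes (DSC1, DSG4, PKP4, PERP, CDSN, PPL, EVPL, KAZN, PNN and TCHP), 9 were tested in EV cells: 8 rose and 1 fell, with 65.5% of all genes called. TCHP, which codes for the keratin-binding protein trichoplein, went from 52.7 to 127 CPM and the plakin PPL from 254 to 462 CPM. Of 8 keratins 6 rose and 2 fell, the 2 being KRT8 and KRT18, the pair of simple epithelia.

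In full medium DSG1, DSC2, DSC3 and PKP1 were lower with wild type UTX. Of the 10 genes 4 were lower and 4 higher in UTX than in EV cells, against a background of 57.7%; all 4 lower genes differed at least 2-fold, against 3.39% of all genes that were at least 2-fold lower. The median log2 fold change of the 10 genes was -0.27, beside 0.04 over all genes. The sum over the 10 genes was nearly the same, at 2078 ± 55.0 CPM against 2004 ± 20.1 CPM. In sphere medium 7 genes were lower and 2 higher (background 48.4%), 3 of them at least 2-fold lower (2.66%), with a median of -0.72 beside -0.01 over all genes. The summed level there was 6502 ± 92.9 CPM with UTX and 8673 ± 98.0 CPM with EV. HEAA gave 3 lower and 5 higher genes in full medium (background 48.5%; 3 at least 2-fold lower, 1.67%) and 7 lower and 2 higher in sphere medium (background 41.4%). UTX and HEAA share their EV controls, so their values stand side by side.

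**Figure D3:**
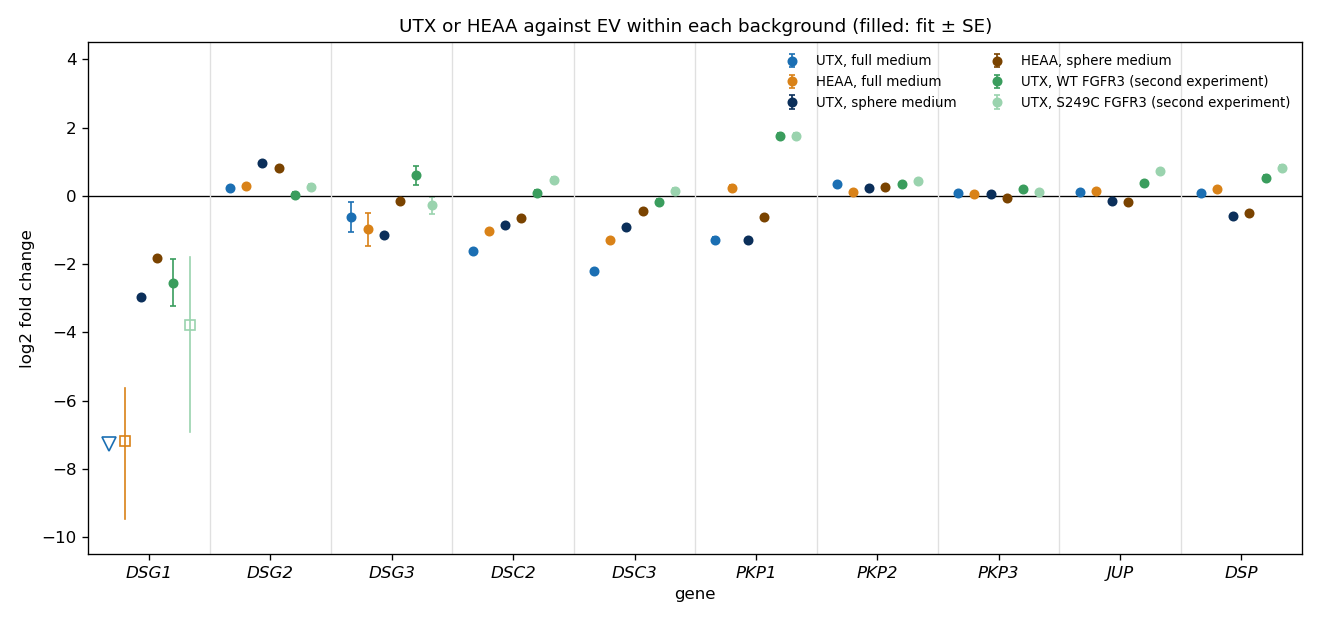
Log2 fold change of each desmosome gene for UTX or HEAA against EV in full and sphere medium (first experiment) and for UTX against EV with wild type or S249C FGFR3 (second experiment); filled points are fitted values ± SE over 3 against 3 libraries, the open triangle is an upper limit for a group with 0 counts, and open squares are count ratios with 95% counting intervals. DSG1 lies below 0 in all 6 comparisons, DSC2 and DSC3 in the 4 of the first experiment, and PKP1 lies below 0 with UTX in the first experiment and above 0 in the second.

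DSG1 showed the largest difference. In full medium it had 129, 178 and 210 counts in EV and 0 in every UTX library, at least 153-fold lower (adjusted p = 1.84e-13); HEAA libraries had 1, 0 and 2 counts, a ratio of 146 with a 95% counting interval of 49.8 to 711. In sphere medium it measured 296, 305 and 339 CPM in EV, 36.9, 41.2 and 41.7 CPM in UTX and 90.9, 87.7 and 89.1 CPM in HEAA. The 3 groups did not overlap, and the log2 fold change against EV was -2.97 ± 0.06 with UTX (adjusted p = 1.21e-18) and -1.81 ± 0.05 with HEAA (adjusted p = 8.85e-16). An antisense transcript, DSG1-AS1, overlaps the gene and had at most 19 counts in any library of the first experiment.

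DSG3 was too low in full medium to tell the lines apart, with 26 counts or fewer in a group of 3 libraries. No call was made, except for HEAA against EV without HEAA replicate 3 (log2 fold change -1.78, adjusted p = 0.0196 in edgeR's test). In sphere medium it measured 69.0, 66.2 and 73.2 CPM in EV, 31.4, 30.1 and 32.7 CPM in UTX and 62.1, 60.8 and 65.6 CPM in HEAA. UTX libraries thus lay 2.21-fold below EV (log2 fold change -1.14 ± 0.06, adjusted p = 2.48e-13), whereas HEAA was close to EV (-0.14 ± 0.05, adjusted p = 0.0264). The HEAA call was lost without EV replicate 1 or 3 (adjusted p = 0.0817 and 0.245) and without HEAA replicate 1 or 2 (0.115 and 0.154), and with DESeq2 (0.0887). It was also lost without a filter on low counts (0.109) and with upper quartile factors (0.0534), both in edgeR's test. DSG2 was higher with either construct: in sphere medium EV libraries measured 340, 339 and 316 CPM, UTX libraries 642, 690 and 624 CPM and HEAA libraries 562, 602 and 572 CPM. The log2 fold change was 0.98 ± 0.04 with UTX and 0.80 ± 0.04 with HEAA in sphere medium (adjusted p = 1.13e-13 and 3.88e-12), and 0.22 ± 0.04 and 0.28 ± 0.04 in full medium (adjusted p = 0.000201 and 2.05e-05).

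Both desmocollins were lower with UTX and with HEAA in both media. DSC2 measured 23.8, 23.8 and 22.4 CPM in EV in full medium, 8.54, 6.76 and 7.32 CPM in UTX and 10.8, 11.3 and 11.8 CPM in HEAA, with no overlap between groups. Its log2 fold change against EV was -1.61 ± 0.06 with UTX and -1.04 ± 0.06 with HEAA (adjusted p = 8.18e-15 and 8.65e-12). DSC3 measured 119, 116 and 112 CPM in EV, 27.2, 25.0 and 23.1 CPM in UTX and 46.2, 47.0 and 47.7 CPM in HEAA. This was 4.61-fold lower with UTX (-2.21 ± 0.05, adjusted p = 1.38e-18) and 2.47-fold lower with HEAA (-1.30 ± 0.05, adjusted p = 5.27e-15). In sphere medium the differences were smaller, -0.85 ± 0.04 and -0.65 ± 0.04 for DSC2 and -0.91 ± 0.04 and -0.44 ± 0.04 for DSC3 with UTX and HEAA. The change between media passed the test for both genes and both constructs (adjusted p between 2.91e-12 and 0.000367).

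Of the plakophilins, only PKP1 fell with UTX. It measured 10.4, 11.4 and 12.1 CPM in EV in full medium, 5.26, 4.22 and 4.40 CPM in UTX and 13.5, 12.2 and 14.3 CPM in HEAA. It fell by 1.28 ± 0.08 on the log2 scale with UTX (adjusted p = 1.89e-11), while HEAA was slightly higher than EV (0.24 ± 0.07, adjusted p = 0.00773), a call lost without EV replicate 1 or HEAA replicate 3 (adjusted p = 0.0919 and 0.109). In sphere medium it measured 540, 527 and 506 CPM in EV, 212, 214 and 210 CPM in UTX and 354, 332 and 343 CPM in HEAA, so that both constructs lay below EV (-1.31 ± 0.05 and -0.61 ± 0.05, adjusted p = 2.16e-15 and 5.89e-10). The shift of the HEAA difference between media passed the test (-0.85 ± 0.08, adjusted p = 9.25e-08), and that of UTX did not (-0.02 ± 0.10, adjusted p = 0.893). PKP2 was higher with UTX in full medium, at 122, 125 and 118 CPM against 93.6, 95.6 and 97.1 CPM (0.35 ± 0.04, adjusted p = 3.52e-07), and in sphere medium (0.23 ± 0.04). HEAA raised PKP2 in sphere medium (0.25 ± 0.04, adjusted p = 7.88e-05), and its call in full medium (0.13 ± 0.04, adjusted p = 0.0174) was lost without EV replicate 1 or 2 (0.137 and 0.0844) or any HEAA replicate (0.095, 0.0693 and 0.0772). That call in full medium was lost too without a filter on low counts (adjusted p = 0.152 in edgeR's test). PKP3 was not called with UTX or HEAA in either medium, with log2 fold changes from -0.05 to 0.08. Under upper quartile scaling it was called higher in full medium (0.18 with UTX and 0.13 with HEAA). With UTX it was also called under the filter of 50 counts in 3 libraries (adjusted p = 0.0204 in edgeR's test).

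DSP and JUP differed in direction between media. DSP measured 439, 442 and 421 CPM in EV, 481, 436 and 473 CPM in UTX and 490, 514 and 504 CPM in HEAA in full medium, where UTX and EV libraries overlapped (log2 fold change 0.09 ± 0.03, adjusted p = 0.0179 with UTX; 0.21 ± 0.03, adjusted p = 1.44e-05 with HEAA). In sphere medium it measured 3707, 3824 and 3748 CPM in EV, 2486, 2494 and 2478 CPM in UTX and 2617, 2666 and 2610 CPM in HEAA, lower with both (-0.60 ± 0.03 and -0.51 ± 0.03, adjusted p = 1.78e-12 and 3.16e-11). JUP followed at smaller size, 0.12 ± 0.04 with UTX in full medium (adjusted p = 0.0154) and -0.15 ± 0.04 in sphere medium (adjusted p = 0.00236). The change between media passed the test with UTX for DSP (-0.69 ± 0.05) and JUP (-0.27 ± 0.06). In full medium the UTX call of DSP was lost without EV replicate 1 or 3 or UTX replicate 1 or 3 (adjusted p = 0.0608, 0.151, 0.108 and 0.0975), and that of JUP without EV replicate 1 or 2 or UTX replicate 2 (0.202, 0.0513 and 0.0779). Both were also lost without a filter on low counts (adjusted p = 0.475 for DSP and 0.257 for JUP in edgeR's test). In a fit of the 2 groups alone the DSP call was lost too (0.105). With HEAA, JUP was 0.14 ± 0.04 higher in full medium (adjusted p = 0.00489), a call lost without EV replicate 1 or HEAA replicate 1 (0.13 and 0.0628), and lower in sphere medium (-0.17 ± 0.04, adjusted p = 0.00146). The HEAA call of JUP in full medium was lost as well without a filter on low counts (adjusted p = 0.0574 in edgeR's test). Over the 10 genes the difference between media passed the test for 6 with UTX (background 37.3%) and for 7 with HEAA (background 33.0%). With UTX, PKP2 gained this call under upper quartile factors (adjusted p = 0.0274) and without EV sphere replicate 3 (0.0317). With HEAA, PKP2 gained it without EV full-medium replicate 1 (0.0493) or EV sphere replicate 2 (0.0129). DSG3 gained it with HEAA without HEAA full-medium replicate 3 (0.0438). These values are from edgeR's test.

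Setting UTX against HEAA directly, 4 genes were lower and 1 higher with UTX in full medium (background 21.4%), and 5 lower and 1 higher in sphere medium (background 20.0%). Among the genes called in full medium PKP1 differed most (-1.52 ± 0.08, adjusted p = 2.8e-11 in edgeR's test), ahead of DSC3 (-0.90 ± 0.05) and DSC2 (-0.57 ± 0.07). PKP2 was higher with UTX (0.22 ± 0.04). DSG1 had 0 counts with UTX and 3 with HEAA there, too few to rank, and was not called. In sphere medium DSG1 (-1.16 ± 0.06, adjusted p = 9.37e-11) and DSG3 (-1.0 ± 0.06, adjusted p = 1.02e-10) differed most, with PKP1 at -0.69 ± 0.05, DSC3 at -0.48 ± 0.04 and DSC2 at -0.19 ± 0.04. DSG2 was slightly higher with UTX (0.17 ± 0.04, adjusted p = 0.00847), a call lost without UTX replicate 2 (0.116) or HEAA replicate 1 or 3 (0.0644 and 0.0528). In sphere medium DSP was called lower with UTX by DESeq2 (adjusted p = 0.0217) and in a fit of the 2 groups alone (0.0296), and PKP3 was called higher with upper quartile factors (0.0369) and without HEAA replicate 1 (0.0388). The DSP difference in full medium (-0.12 ± 0.03, adjusted p = 0.0138) was lost without UTX replicate 2 or HEAA replicate 2 or 3 (0.0783, 0.104 and 0.0745). It was lost as well with upper quartile factors (0.112) and in a fit of the 2 groups alone (0.0761), both in edgeR's test. KDM6A itself was 1.20-fold lower in the UTX than in the HEAA line in full medium and 1.10-fold lower in sphere medium, and its part in these differences was not tested.

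In the first experiment the basal markers KRT5, KRT14 and TP63 were also lower with UTX, 3 of 3 in both media. Their sums were 265 to 287 CPM against 2343 to 2542 CPM in EV in full medium and 3641 to 4004 against 13565 to 14647 CPM in sphere medium. Of the 9 further desmosome genes tested, 5 were lower and 2 higher with UTX in each medium, where 57.7% (full) and 48.4% (sphere) of all genes were called. TCHP fell from 52.7 to 29.5 CPM in full medium (log2 fold change -0.84 ± 0.05). CDSN, the corneodesmosin of the outer epidermis, rose from 0.268 to 7.56 CPM in sphere medium (4.80 ± 0.35), opposite to DSG1. DSC1, the third desmocollin, had 19 counts in EV and 3 in UTX in full medium, a ratio of 5.64 with a 95% counting interval of 1.66 to 29.7. In the second experiment 1 of the 3 basal markers was lower with UTX beside wild type FGFR3 and 2 were not called (background 15.1%). Beside S249C 2 were higher and 1 was lower (background 21.5%). The summed basal markers were lower with UTX in both, at 1302 to 1354 against 2027 to 2164 CPM and at 877 to 899 against 1198 to 1229 CPM. The part of the basal markers in the desmosome results was not tested.

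In the second experiment PKP1, PKP2, DSP and JUP were higher with UTX in both FGFR3 backgrounds. With wild type FGFR3, 5 of the 10 genes were higher and 1 lower (background 15.1%), and with S249C 6 were higher and 1 lower (background 21.5%). The median log2 fold change of the 10 genes was 0.27 and 0.35, beside 0.00 and -0.01 over all genes. The 2 experiments used other vectors and library kits and were scaled separately, so their levels are not compared.

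**Figure D4:**
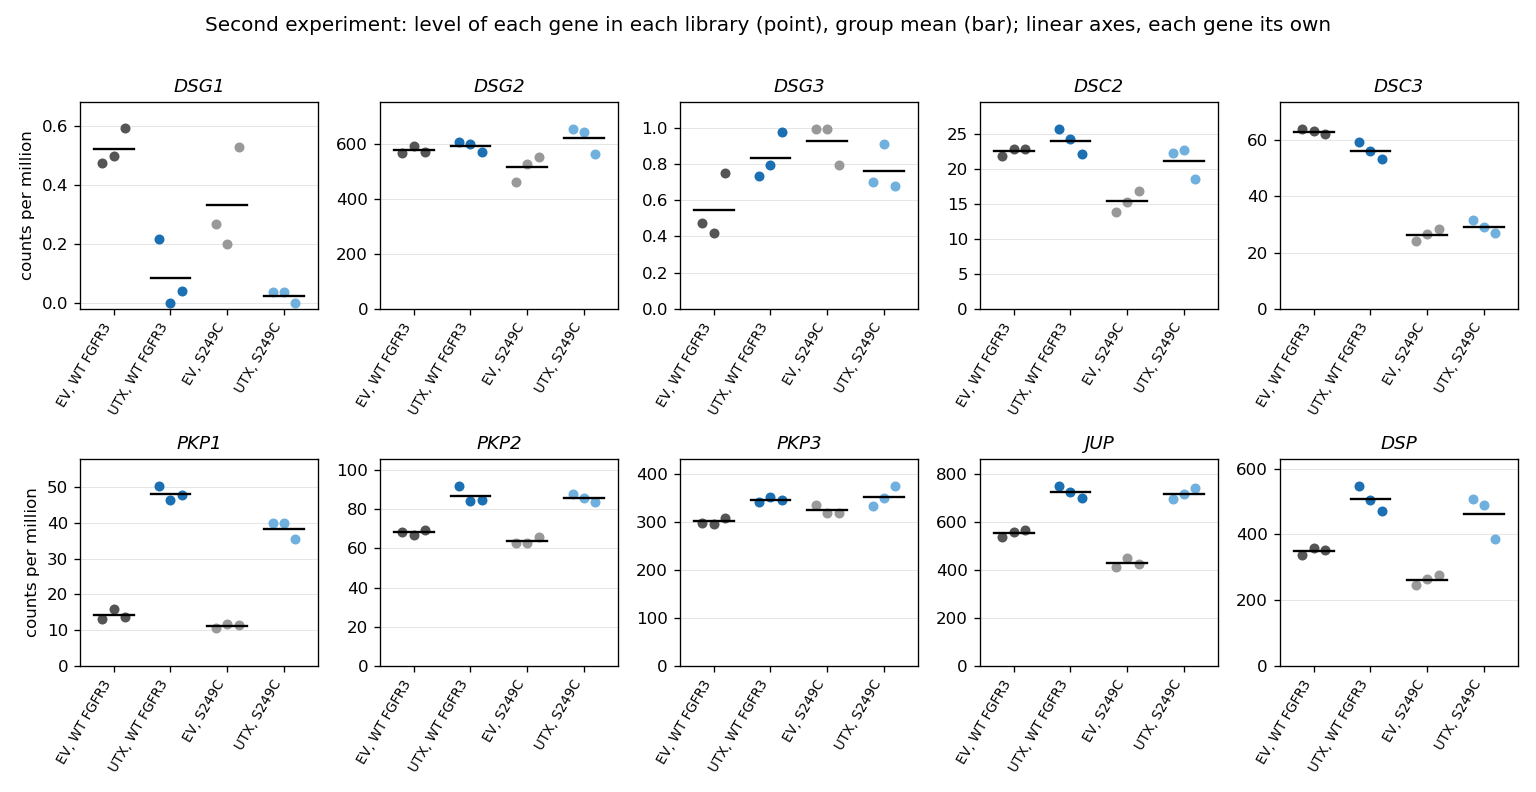
Level of each desmosome gene in the 12 libraries of the second experiment, in CPM on linear axes that differ between genes; points are libraries and bars are group means of 3 libraries. PKP1 is higher in all 6 UTX libraries than in all 6 EV libraries, and DSC3 is lower in all 6 S249C libraries than in all 6 with wild type FGFR3.

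PKP1 rose most and in both backgrounds. It measured 13.0, 15.8 and 13.8 CPM in EV and 50.2, 46.3 and 47.7 CPM in UTX with wild type FGFR3, 3.38-fold higher (log2 fold change 1.76 ± 0.07, adjusted p = 7.07e-10). With S249C it measured 10.6, 11.7 and 11.5 CPM in EV and 39.9, 39.9 and 35.4 CPM in UTX, 3.41-fold higher (1.77 ± 0.08, adjusted p = 7.22e-10). This direction is opposite to that in the first experiment, where PKP1 fell with UTX in the same medium; the difference was not tested, since the tables were fitted apart. PKP2 rose as in the first experiment, from 68.3, 67.1 and 69.2 CPM to 91.7, 84.4 and 84.5 CPM with wild type FGFR3 (0.35 ± 0.04, adjusted p = 5.92e-05) and from 62.9, 63.0 and 65.6 CPM to 87.6, 85.6 and 83.5 CPM with S249C (0.42 ± 0.04, adjusted p = 6.95e-06). PKP3 was called with wild type FGFR3 (0.20 ± 0.05, adjusted p = 0.00766) and not with S249C (0.12 ± 0.05, adjusted p = 0.0755), except without UTX replicate 1 (0.17, adjusted p = 0.0327).

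DSP and JUP were higher with UTX in both backgrounds. DSP measured 337, 359 and 352 CPM in EV and 547, 506 and 471 CPM in UTX with wild type FGFR3 (log2 fold change 0.54 ± 0.09, adjusted p = 0.000446), and 245, 265 and 277 CPM and then 509, 491 and 386 CPM with S249C (0.81 ± 0.09, adjusted p = 7.77e-06). JUP measured 539, 561 and 569 CPM in EV and 750, 728 and 700 CPM in UTX with wild type FGFR3 (0.38 ± 0.05, adjusted p = 3.43e-05), and 412, 450 and 425 CPM and then 696, 716 and 742 CPM with S249C (0.74 ± 0.05, adjusted p = 3.88e-08). The groups did not overlap in either case. JUP was the one desmosome gene whose UTX difference depended on FGFR3 by the test (0.36 ± 0.07, adjusted p = 0.0213; background 0.686%). This call was lost without EV replicate 2 or 3 or UTX replicate 2 or 3 of the wild type FGFR3 lines (adjusted p = 0.065, 0.0674, 0.0693 and 0.0763) and without replicate 2 of UTX with S249C (0.0569). Without replicate 3 of UTX with S249C, a library with KDM6A at 700 CPM against 941 and 946 CPM in the others, DSP was called as well (0.39, adjusted p = 0.0363 in edgeR's test). FGFR3 itself was called higher with UTX beside S249C and was not called beside wild type FGFR3. Its part in these differences was not tested.

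Of the cadherins, DSG1 was lower with UTX in both backgrounds. DSG1 had 11, 13 and 15 counts in EV and 5, 0 and 1 in UTX with wild type FGFR3 (log2 fold change -2.54 ± 0.68, adjusted p = 0.0195), a call lost without EV replicate 3 or UTX replicate 2 or 3 (adjusted p = 0.0715, 0.0733 and 0.0964). With S249C it had 26 counts in EV and 2 in UTX, a ratio of 13.8 with a 95% counting interval of 3.46 to 120 (adjusted p = 0.00895 in edgeR's test). DSG1 passed the filter on low counts through EV libraries, where it is high, which limits both calls. DSG2 and DSC2 were higher with UTX in the S249C background alone: DSG2 went from 461, 528 and 554 CPM to 654, 644 and 565 CPM (0.27 ± 0.07, adjusted p = 0.00869) and DSC2 from 13.9, 15.3 and 16.9 CPM to 22.3, 22.7 and 18.5 CPM (0.46 ± 0.09, adjusted p = 0.00156). The difference between backgrounds did not pass the test for either gene (adjusted p = 0.383 and 0.27). DSC3 was not called with UTX in either background (-0.16 ± 0.06, adjusted p = 0.108, and 0.15 ± 0.07, adjusted p = 0.152), although a fit of the 2 groups alone called it with wild type FGFR3 (adjusted p = 0.0198). DSG3 was not called either and stayed under 1 CPM in all 12 libraries.

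S249C lowered 5 of the 10 genes in EV cells (10.8% of all genes called, 6.45% lower) and 2 in UTX cells (3.05% called, 1.34% lower), and no desmosome gene was called higher. DSC3 differed most, at 63.9, 63.1 and 62.1 CPM with wild type FGFR3 and 24.0, 26.5 and 28.3 CPM with S249C in EV cells, 2.40-fold lower (log2 fold change -1.26 ± 0.07, adjusted p = 6.21e-08). In UTX cells it measured 59.5, 56.0 and 53.3 CPM and then 31.6, 29.1 and 26.8 CPM (-0.95 ± 0.07, adjusted p = 1.35e-06), again with no overlap. DSC2 (-0.55 ± 0.09, adjusted p = 0.00106), DSP (-0.41 ± 0.09, adjusted p = 0.0069) and JUP (-0.38 ± 0.05, adjusted p = 0.000136) were lower in EV cells. PKP1 was lower in both, by 0.34 ± 0.08 and 0.32 ± 0.07 on the log2 scale. Its call was lost in EV cells without EV replicate 2 with wild type FGFR3 (adjusted p = 0.0845) or EV replicate 1 with S249C (0.0727), and in UTX cells without UTX replicate 1 with wild type FGFR3 (0.0817). FGFR3 itself was 1.79-fold and 2.08-fold higher in the S249C lines than in the wild type lines, so the mutation and the level of FGFR3 cannot be told apart. The basal markers KRT5, KRT14 and TP63 were lower with S249C as well, 3 of 3 in EV and in UTX cells, with sums of 1198 to 1229 against 2027 to 2164 CPM and 877 to 899 against 1302 to 1354 CPM; their part was not tested.

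The ratio of related genes within a library does not depend on library scaling. PKP1 counts were 0.118 of PKP2 counts in EV cells in full medium and 6.93 times PKP2 counts in sphere medium, and the log2 ratio went from -3.08 ± 0.08 to 2.79 ± 0.08 (SD). UTX lay below EV in each medium, at -4.72 ± 0.17 and 1.25 ± 0.05, whereas in the second experiment it lay above, at -0.85 ± 0.02 against -2.27 ± 0.16 with wild type FGFR3. The log2 ratio of DSG3 to DSG2 went from -10.67 ± 0.56 to -2.26 ± 0.13 in EV cells with the change to sphere medium and stood at -4.37 ± 0.13 with UTX and -3.20 ± 0.09 with HEAA. The log2 ratio of DSC3 to DSC2 fell in sphere medium, from 2.31 ± 0.02 to 0.87 ± 0.08 in EV, and with S249C, from 1.48 ± 0.06 to 0.78 ± 0.03.

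**Figure D5:**
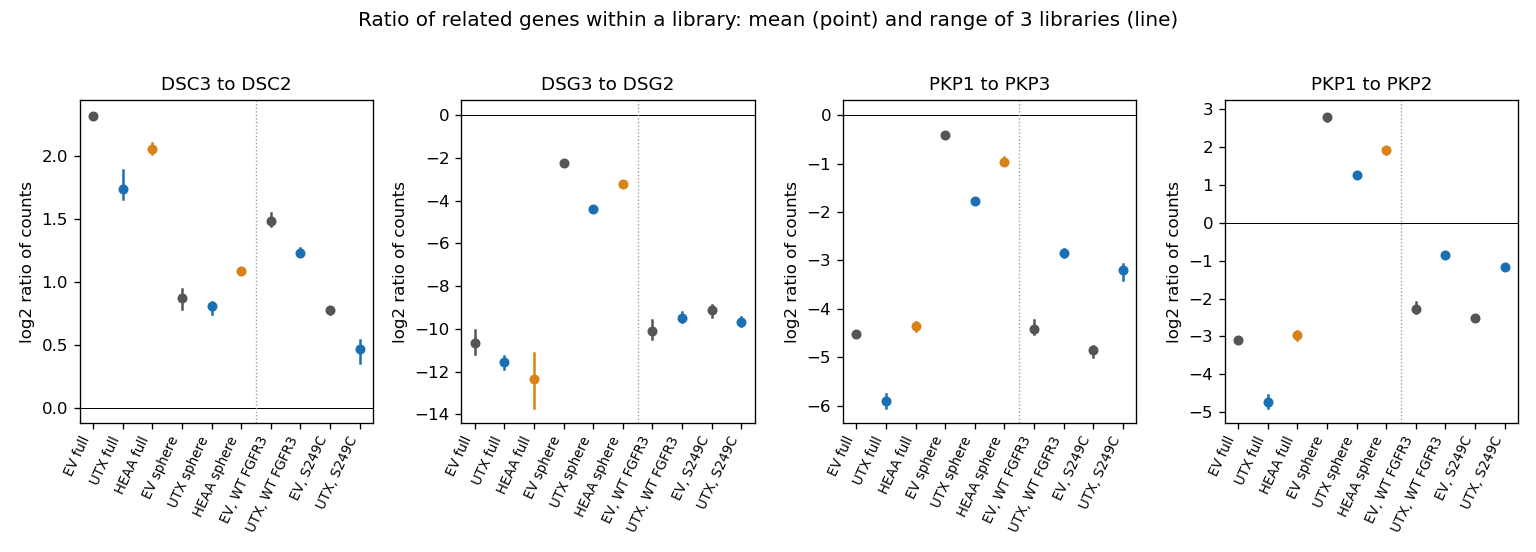
Log2 ratio of the counts of 2 related genes in the same library, for 4 pairs over the 10 groups; points are means and lines the range of 3 libraries, and the dotted line divides the experiments. The ratios PKP1 to PKP2, PKP1 to PKP3 and DSG3 to DSG2 are higher in the 3 sphere groups than in the full-medium groups of the first experiment, and DSC3 to DSC2 is lower.

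Across the 18 libraries of the first experiment, genes were ranked by Pearson's r of log2(CPM + 0.5) with each desmosome gene among 10918 genes with a mean of at least 5 CPM. These libraries fall into 6 groups and share their medium and line differences, so r is a description. The genes nearest to DSG1 were FDPS (r = 0.996), an enzyme of isoprenoid synthesis, and CUL4A (0.9952), and nearest to DSC3 were CYP51A1 (0.9994), an enzyme of sterol synthesis, and FGFBP1 (0.9985). Over the 12 libraries of the second experiment r was 0.66 for FDPS with DSG1 and 0.487 for CYP51A1 with DSC3. PKP2 was nearest to RNF144B and B2M, a subunit of MHC class I (0.9664 and 0.9641), with r of 0.888 and 0.849 in the second experiment. JUP was nearest to CDC42EP4 and GYS1, muscle glycogen synthase (0.998 each, and 0.821 and 0.926 in the second). PKP1 was nearest to CORO1C and TRIB2 (0.9976 and 0.995), with 0.003 and -0.857 in the second. Among the 10 genes themselves in the first experiment, DSP and JUP had r = 0.995 and DSG1 and PKP2 r = -0.907, while DSG2 had r between -0.102 and 0.265 with the other 9. In the second experiment r of DSG2 ran from -0.339 with DSG3 to 0.836 with DSP, and that of DSP with JUP was 0.945.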

How the data were processed

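RNA of 30 samples of UMUC1 cells was sequenced, 18 in the first experiment (Illumina TruSeq) and 12 in the second (NEBNext Ultra II). Estimated counts per gene were deposited as whole numbers in 1 table per experiment; the submitters' processing notes name Salmon 0.8 and DESeq2 and the builds hg19 and GRCh37, with no annotation release named. From these counts, genes passing filterByExpr (19629 and 19399) were fitted with edgeR 4.0.16 (R 4.3.3), with TMM factors and quasi-likelihood tests, 1 fit per experiment with all its groups, Benjamini-Hochberg adjustment over all genes tested and a threshold of 0.05. Each experiment was normalized on its own. CPM used the same factors, and CPM per kb the exon length of GENCODE v29. Ratios with 1 to 3 counts have exact 95% counting intervals, and a group of 0 counts was set to 3 counts, which cover counting error only. The script was tested on simulated counts. Alternatives were RLE and upper quartile factors, DESeq2 1.42.0, other filters, a fit of the compared groups only, a replicate block and leaving out each library. All 10 desmosome genes passed the filter in both experiments. DSG1 in the second experiment passed it through EV libraries, and DSG3 in the first through sphere libraries, where each is high. Named beside them are at most 4 genes per list, those with the largest called change of UTX against EV, and the 2 genes most correlated with each desmosome gene; other marker genes are named as members of their lists. The desmosome genes and the lists were chosen with earlier results of these data known.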

Additional observations from a re-analysis of the deposited data

Results flagged for a closer look

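The effect of UTX against EV differed between sphere and full medium by edgeR's test of that difference for 6 desmosome genes (background 37.3%). The difference of the log2 fold changes was 0.75 for DSG2, 0.77 for DSC2, 1.29 for DSC3, -0.69 for DSP and -0.27 for JUP. For DSG1, with 0 counts in the UTX libraries in full medium, only the adjusted p of 2.27e-07 is given. With HEAA in place of UTX 33.0% of all genes were called. The difference with HEAA was 0.53 for DSG2, 0.39 for DSC2, 0.86 for DSC3, -0.85 for PKP1, -0.73 for DSP and -0.31 for JUP. For DSG1 the adjusted p with HEAA was 1e-08 in the same test. The effect of UTX differed between S249C and wild type FGFR3 for JUP, by 0.36 (background 0.686%).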

How the results depend on the processing

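Of 2238 values of desmosome genes recomputed under the alternatives, 2147 kept their direction and side of the threshold, 47 lost a call, 16 gained one and 28 changed sign; the cause was not tested. With upper quartile factors JUP in UTX against HEAA in full medium became 0.00887 and PKP1 in the UTX by FGFR3 difference became -0.00431, and without a filter PKP1 and PKP3 in the UTX by medium difference became 0.0406 and 0.0434. None of these was called in edgeR's test. Leaving out 1 library moved other uncalled values across 0: in S249C against wild type FGFR3 with UTX, DSG1 from -2.14 to 0.16 (fitted, no bound), DSG3 from -0.28 to 0.0022, JUP from -0.0368 to 0.0149, PKP2 from -0.0372 to 0.0239 and PKP3 from -0.0134 to 0.0748. In UTX against HEAA they were DSG3 from -0.0175 to 1.16 and PKP3 from -0.000571 to 0.0408 in full medium, and JUP from -0.0524 to 0.0459 in sphere medium. PKP3 in HEAA against EV in sphere medium ran from -0.0938 to 0.0339. For the UTX by medium difference PKP1 ran from -0.0790 to 0.0846 and PKP3 from -0.0514 to 0.0181, and for the UTX by FGFR3 difference DSG1 from -1.51 to 0.80 (fitted, no bound) and PKP1 from -0.0663 to 0.0812. Leaving out 1 library gave 5 to 8 called desmosome genes for HEAA against EV in full medium (5 without EV replicate 1), 1 to 2 for S249C in UTX cells and 0 to 2 for the UTX by FGFR3 difference. The replicate block gave 8 called desmosome genes for UTX against EV in full medium and changed no call of a desmosome gene. The deviations of each gene from its group mean were correlated between same-numbered libraries of the groups compared. For these deviations, not for the levels themselves, r lay between -0.0987 and 0.194, so the numbers were not taken as pairs. Upper quartile factors moved the median of all genes from -0.06 to -0.22 for sphere against full medium in UTX cells, and the share of higher genes among those called from 49.3% to 59.7% for UTX against EV in full medium, from 41.8% to 55.9% for UTX against HEAA in full medium and from 49.8% to 38.7% for sphere medium in UTX cells. All genes called for the UTX by FGFR3 difference numbered 133, 80 with the replicate block and 58 to 248 without 1 library. In the second experiment DSG1 and DSG3 had no value under the filter of 50 counts in 3 libraries. Low counts limit DSG1 and DSG3 in full medium.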

Other observations

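With UTX in the first experiment, 57.7% of all genes were called in full medium and 48.4% in sphere medium, the background for the counts that follow. Of 6 hemidesmosome genes, which anchor epithelial cells to the basement membrane, 5 were higher with UTX in full medium and none lower by edgeR's test, with a median log2 fold change of 0.82 beside 0.04 over all genes, and 4 were higher and none lower in sphere medium. COL17A1, a transmembrane collagen of hemidesmosomes, rose from 474 to 999 CPM (1.08 ± 0.05), and ITGB4, their integrin subunit, from 904 to 1603 CPM (0.83 ± 0.05), both in full medium. Of 10 adherens junction genes 4 were higher and 3 lower in full medium, and 4 higher and 2 lower in sphere medium; CDH1, E-cadherin, rose from 443 to 807 CPM (0.87 ± 0.04).

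Of 8 transcription factors of stratified epithelium 7 were lower with UTX in full medium and 1 higher (background 57.7%), with a median log2 fold change of -0.61, and 6 were lower and none higher in sphere medium (48.4%). GRHL3, a grainyhead-like factor, fell from 20.4 to 2.19 CPM (-3.21 ± 0.09) and KLF4 from 33.8 to 19.5 CPM (-0.79 ± 0.06) in full medium. Of 8 keratins, the filaments that desmosomes anchor, 4 were lower and 2 higher in full medium (57.7%) and 5 lower and 3 higher in sphere medium (48.4%). KRT5 fell from 2287 to 167 CPM in full medium (-3.77 ± 0.05) and KRT13 from 6529 to 1650 CPM in sphere medium (-1.98 ± 0.04).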
